A study of Mus musculus with 3 samples.

Results

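The genes described here are 40 immune cell genes, listed by name for macrophages and monocytes, neutrophils and lymphocytes, together with genes shared by most leukocytes. Of the 40 names, 39 matched a gene on the array, out of 18193 genes in all, and the name Mmp8x matched none. Where a gene had several probe sets, the one with the highest mean over the arrays was read. The arrays carry RNA of 3 cell fractions of the olfactory epithelium of Tgn1-2G transgenic mice of both sexes at postnatal days 5 to 8, sorted by GFP brightness. From other work, the transgene is known to drive GFP from control elements of Neurog1, a transcription factor of olfactory neuron progenitors, and all 3 fractions come from animals of this strain. GFP+++ held 1000000 brightly fluorescent cells, which the submitters describe as rich in immature neurons. GFP+ held 1300000 weakly fluorescent cells, described as slightly richer in mature neurons, and GFP- held 6800000 unlabelled cells of every type. Each fraction gives the number 32, read here as pooled mice, and was measured on 1 array. No difference below therefore has a replicate check or a test.

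Macrophages and monocytes are phagocytes that depend on the growth factor receptor encoded by Csf1r, and in tissue they clear dying cells, which in the olfactory epithelium include the neurons lost in its lifelong turnover. They signal through Fc receptors and their adaptors, digest what they take up with lysosomal proteases and lysozyme, and are the main source of complement C1q. Neutrophils are short-lived blood granulocytes that carry ready-made antimicrobial proteins in their granules. T and B lymphocytes are known by the signalling chains of their antigen receptors, the Cd3 and Cd79 proteins.

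Signals are MAS5 intensities on a linear scale. A signal under 104, the median over all probe sets and arrays, was raised to this floor before a fold was taken, so a fold against such a value can only be too small, and "at least" stands before it. Of the 39 genes, 35 reached the floor on 1 array or more. The 4 that did not were Itgam, Cd3e, Cd3g and Cd79a. Itgam lay just under it at 99.9 in GFP-, and Cd79b just above it at 136 in GFP-. The error of the array measurement was read from genes with several probe sets: over 4633 such genes the log2 folds of GFP+++ against GFP- had a pooled SD of 0.30, and over 4979 genes those of GFP+ against GFP- had 0.24. Variation between pools of mice or between sorts is not part of it, nor is error shared by all probe sets of an array.

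The arrays differed in the number of genes above the floor, from 10734 in GFP+++ to 12031 in GFP-, and the 3' to 5' signal ratio of the beta-actin controls lay between 1.31 and 1.46. The mature neuron marker Omp was highest in GFP+, and the immature neuron marker Gap43 in GFP+++. Omp had signals of 5041 (GFP+++), 10615 (GFP+) and 7748 (GFP-), and Gap43 gave 11233, 6006 and 6395 in the same order.

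Immune genes were nearly all at or near the floor in GFP+++ and were clearly present in both other fractions. Of the 35 genes, 32 lay 2-fold or more below GFP- in GFP+++, against a background of 12.4% of 12235 genes, and 0 lay 2-fold or more above it (background 1.92%). The median log2 fold of the 35 was -3.15 (at least 8.86-fold lower), beside 0.01 over all genes. In 26 of them GFP+++ lay under the floor, so passing the floor in GFP- fixed their direction. With each array scaled to a common median, the median of all genes moved to 0.42 and that of the immune genes to -2.96. The split of all genes then went from 1522 lower and 235 higher to 1045 lower and 1129 higher. Fewer leukocytes and less of their RNA per cell cannot be told apart in these bulk samples.

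GFP+ was different. Of the 35 genes, 0 were 2-fold lower in GFP+ than in GFP- (background 0.804%), and 0 were 2-fold higher (background 0.607%). With quantile normalization 3 were 2-fold lower: C1qa, C1qc and Fcgr3. At 1.5-fold, 11 of 35 were lower (background 7.13%) and only Ngp was higher (background 4.67%). Against GFP+, 30 of 34 genes were at least 2-fold lower in GFP+++ (background 9.34%) and 0 at least 2-fold higher (background 0.985%). The median log2 fold was -2.63, beside -0.02 over all genes. In 25 of the 34 GFP+++ lay under the floor, so passing the floor in GFP+ fixed their direction. Over all genes 1354 of 11881 folds had an array under the floor, so the backgrounds are not like for like. These comparisons share arrays: GFP- serves both GFP+++ and GFP+, and GFP+++ is set against both others.

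**Figure D1:**
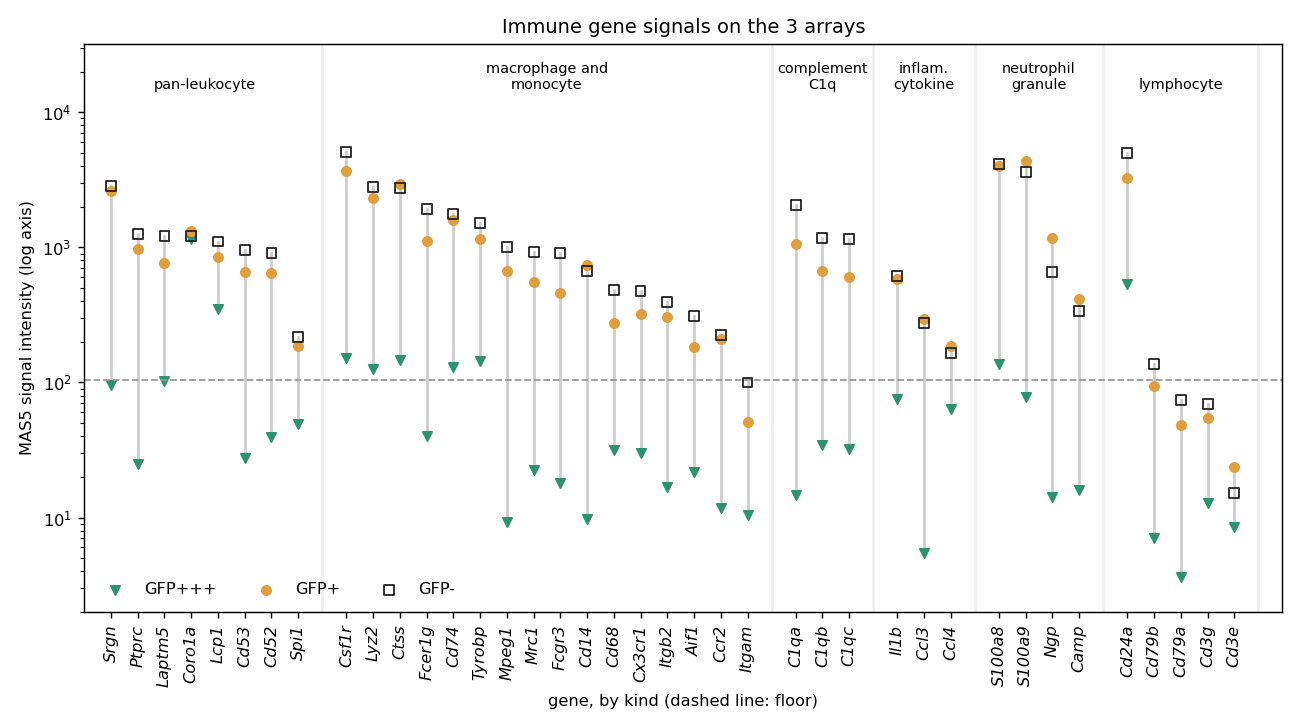
MAS5 signal (log axis) of the 39 measured immune genes in GFP+++ (triangles), GFP+ (circles) and GFP- (squares), 1 array each, grouped by kind, with the floor of 104 dashed. In GFP+++ most genes lie under the floor, Coro1a, Lcp1 and Cd24a being the ones clearly above it, while GFP+ and GFP- lie within 2-fold of each other for the 34 genes above the floor on both, except C1qa, C1qc and Fcgr3 with quantile normalization.

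The genes shared by most leukocytes show the common pattern. Ptprc, the CD45 phosphatase on the surface of all leukocytes, had signals of 24.9 (GFP+++), 968 (GFP+) and 1256 (GFP-). GFP+++ held at most 8.31% of the GFP- signal, and GFP+ held 77.1%. The tetraspanin Cd53 (27.7, 652 and 956) and the small surface glycoprotein gene Cd52 (39.1, 641 and 913) ran the same way, with 68.3% and 70.2% in GFP+. Laptm5, a lysosomal membrane protein of blood cells, gave 102, 767 and 1212, or 63.3%. Its chosen probe set carries the suffix _x_at, which marks possible binding to other transcripts, and another of its probe sets gave 71.3%. With the median over its probe sets, its log2 fold of -3.54 in GFP+++ against GFP- shrank to -0.39 and was no longer 2-fold. Srgn, the proteoglycan that packs secretory granules, had signals of 95.7 (GFP+++), 2627 (GFP+) and 2825 (GFP-). GFP+++ lay at least 27.1-fold below GFP-, but GFP+ held 93.0% of its GFP- signal. Spi1, which encodes the myeloid and B cell transcription factor PU.1, was dim throughout (49.2, 186 and 217) and at least 2.08-fold lower in GFP+++. That bound fell under 2-fold with median scaling and with quantile normalization.

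A pair of the shared genes kept signal in the bright cells. Coro1a, an actin regulator of leukocytes that is also known from neurons, had signals of 1155 (GFP+++), 1327 (GFP+) and 1211 (GFP-). Its log2 fold of -0.07 in GFP+++ against GFP- lay within the measurement error and turned positive with median scaling. A second probe set of Coro1a gave 428, 439 and 457. Lcp1, the actin-bundling protein L-plastin, gave 352, 843 and 1104, so GFP+++ held 31.9% of the GFP- signal, with 201, 654 and 877 on its second probe set. Both are actin regulators. The remaining probe set of Coro1a lay under the floor on all arrays (24.2, 9.26 and 11.9).

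Among receptors and adaptors of macrophages and monocytes, Csf1r had signals of 151 (GFP+++), 3685 (GFP+) and 5051 (GFP-). GFP+++ thus held 2.98% and GFP+ 73.0% of the GFP- signal. Its other probe sets placed GFP+ lower, at 65.4% and 54.6%. The fractalkine receptor gene Cx3cr1, of tissue macrophages and patrolling monocytes, gave 29.8, 320 and 478 (67.0% in GFP+). Ccr2, the chemokine receptor of inflammatory monocytes, gave 11.8, 209 and 223 (93.8%), and 87.0% on a second probe set. Its bound of 2.13-fold in GFP+++ against GFP- fell under 2-fold with median scaling, with quantile normalization and with the median over probe sets. Ccr2 thus lay nearer to equality between GFP+ and GFP- than Cx3cr1, with log2 folds of -0.09 and -0.58. The error SD of a difference of 2 genes was 0.34. Both genes were dim, and 1 gene each does not stand for monocytes or resident macrophages.

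The Fc receptor gene Fcgr3 had signals of 18.1 (GFP+++), 458 (GFP+) and 908 (GFP-). At 50.4%, it had the lowest share of the GFP- signal in GFP+ among the members, within the error of its neighbours in that order. Fcer1g, the signalling chain that Fc receptors share, gave 39.9, 1115 and 1909 (58.4%). Tyrobp, the adaptor DAP12 of other activating receptors, gave 144, 1159 and 1502 (77.2%). The integrin chain Itgb2 (16.9, 303 and 397) stood at 76.3%, while its partner Itgam did not reach the floor (10.5, 51.3 and 99.9). Mrc1, the mannose receptor of resident macrophages, gave 22.6, 549 and 924 (59.4%). Cd14, the co-receptor for bacterial lipopolysaccharide that monocytes and neutrophils share, gave 9.81, 734 and 669. At 110% it was higher in GFP+ than in GFP- by less than the measurement error.

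The genes of phagocytosis and antigen processing spread as widely. The lysosomal glycoprotein gene Cd68 (31.6, 276 and 484) and the cytoskeletal protein gene Aif1 (21.6, 183 and 312) stood at 57.0% and 58.7% in GFP+. Mpeg1, the pore-forming perforin-2 of macrophages, gave 9.28, 666 and 1002 (66.5%). Lyz2, the lysozyme of macrophages and neutrophils, had signals of 126 (GFP+++), 2314 (GFP+) and 2781 (GFP-). It was 22.0-fold lower in GFP+++ than in GFP-, and GFP+ held 83.2%. Cd74, the invariant chain of class II molecules, gave 130, 1585 and 1776 (89.2%). Ctss, the cathepsin that cuts it, gave 148, 2941 and 2763 (106%). In all, the 15 macrophage and monocyte genes above the floor had a median of 73.0% in GFP+, from 50.4% to 110%, and 5 lay under 60%: Fcgr3, Cd68, Fcer1g, Aif1 and Mrc1. The background for a percentage under 60 was 3.35% of 11509 genes.

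The 3 chains of complement C1q, which assemble into 1 protein, ran as a block. C1qa had signals of 14.7 (GFP+++), 1066 (GFP+) and 2063 (GFP-). C1qb gave 34.6, 673 and 1180, and C1qc gave 32.0, 601 and 1158. GFP+++ lay under the floor for all of them, at least 19.8-fold, 11.3-fold and 11.1-fold below GFP-. GFP+ held 51.7%, 57.0% and 51.9% of the GFP- signal, and the further C1qb probe sets gave 53.1% and 53.2%. The spread of the 3 log2 folds (SD 0.08) was smaller than the measurement error. The RefSeq table places C1qb, C1qc and C1qa as consecutive protein-coding genes on chromosome 4.

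Neutrophil granule genes stood at the opposite end. S100a8 and S100a9 encode the chains of calprotectin, the metal-binding protein that fills the neutrophil cytosol. S100a8 had signals of 137 (GFP+++), 4020 (GFP+) and 4134 (GFP-). GFP+++ held 3.31% and GFP+ 97.2%. With median scaling the latter was 107%, and its only probe set carries the suffix _s_at. S100a9 gave 77.6, 4382 and 3627, with GFP+ at 121%, and GFP+++ at least 42.0-fold lower than GFP+. Both were at or near the floor in the bright cells and lay within 1.21-fold between GFP+ and GFP-.

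Ngp, a granule protein of the cathelicidin-related family made by maturing neutrophils, had signals of 14.1 (GFP+++), 1170 (GFP+) and 655 (GFP-). It was 1.79-fold higher in GFP+ than in GFP- (179%), the highest percentage among the members. Camp, the mouse cathelicidin, gave 16.1, 417 and 335 (124%). Of the 4 neutrophil genes, 3 exceeded 100% (background 50.3%), and the median of the 4 was 123%. The 3 stayed above 100% under each setting that gave them a value. With median scaling, however, the median of all genes was itself 110%. A share among 4 genes was not read as a difference from the background.

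The inflammatory cytokines lay between. Il1b, encoding interleukin-1 beta, gave 76.0, 584 and 611 (95.7% in GFP+, or 105% with median scaling). The chemokine genes Ccl3 (5.42, 294 and 274) and Ccl4 (63.7, 186 and 164), adjacent protein-coding genes on chromosome 11, stood at 107% and 113%. All 3 lay within the measurement error of equality between GFP+ and GFP-. Ccl4 was too dim to show a 2-fold difference between GFP+++ and GFP- above the floor (at least 1.58-fold).

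Lymphocyte genes were scarcely detectable. The T cell receptor chains Cd3e (8.48, 23.5 and 15.1) and Cd3g (12.8, 54.1 and 69.7) and the B cell receptor chain Cd79a (3.63, 48.5 and 73.6) lay under the floor on every array. Its partner Cd79b passed in GFP- only (7.04, 93.7 and 136). No ratio was read from the first 3. Cd24a, a surface glycoprotein of B cell precursors and neutrophils that is also known from epithelia and developing neurons, did not share this pattern. It had signals of 532 (GFP+++), 3236 (GFP+) and 5011 (GFP-). GFP+++ held 10.6% and GFP+ 64.6%. Its further probe sets put GFP+ at 76.5% and 60.9%. With the antigen receptor chains at or under the floor, lymphocytes as the source of the Cd24a signal were not tested.

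**Figure D2:**
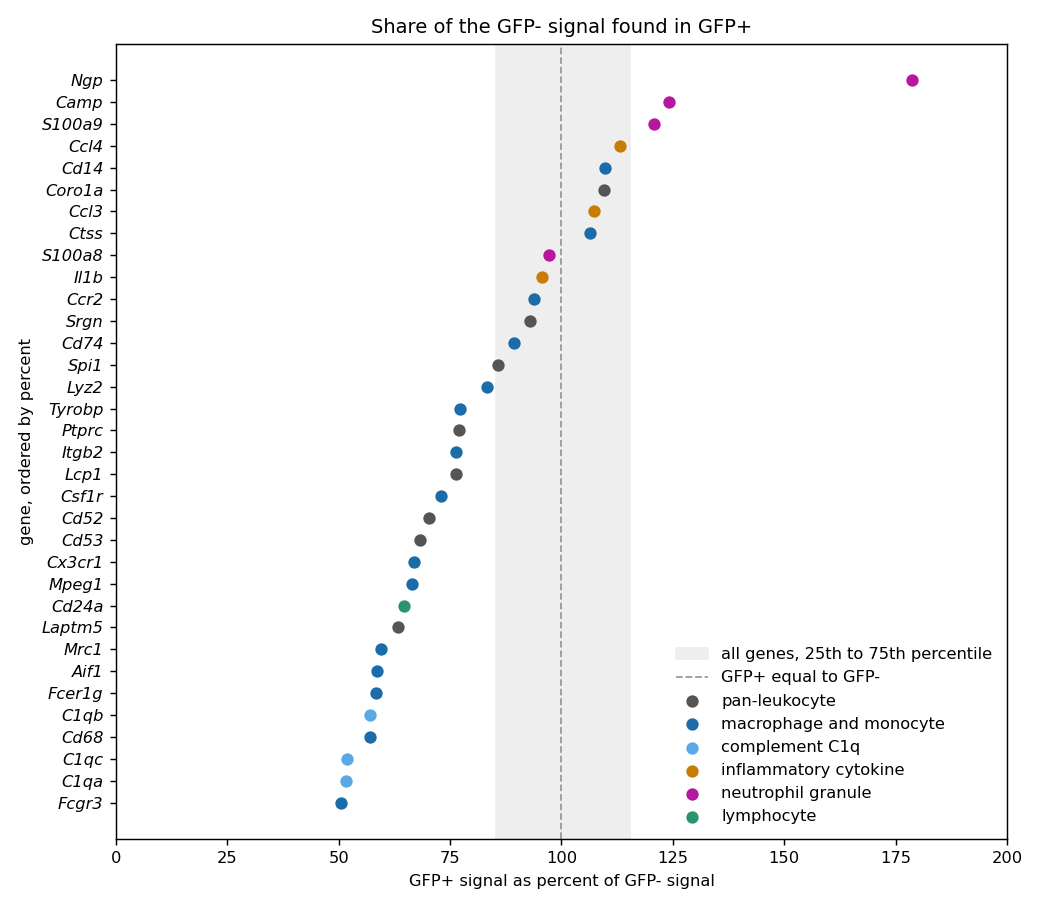
GFP+ signal as percent of GFP- signal for the 34 immune genes above the floor on both arrays, ordered and coloured by kind, with the 25th to 75th percentile of all genes shaded. Fcgr3 (50.4%), the C1q chains and Cd68 lie lowest and Ngp (179%) highest; with median scaling Srgn, Ccr2, Il1b and S100a8 also pass 100%.

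Ordered by this percentage, the kinds ran from C1q (median 51.9%, 3 genes) through macrophage and monocyte genes (73.0%, 15 genes) and shared leukocyte genes (76.7%, 8 genes) to cytokines (107%, 3 genes) and neutrophil granule genes (123%, 4 genes). The single lymphocyte gene with a value was Cd24a. Macrophage and shared leukocyte medians differed by less than the measurement error, and so did cytokine and neutrophil medians. Of the neutrophil genes only Ngp, with 1 probe set, was 1.5-fold higher in GFP+ than in GFP-. Over all 34 genes the median was 76.7%, beside 100% over 11509 genes, and 8 genes exceeded 100% (background 50.3%). These were Coro1a, Cd14, Ctss, Ccl3, Ccl4, S100a9, Ngp and Camp, and with median scaling Srgn, Ccr2, Il1b and S100a8 joined them. Median scaling multiplied every percentage by the same factor and moved the median of all genes to 110%, so it left the order unchanged. Of 10 further probe sets of 7 members that could be read, 9 lay on the same side of 100% as the chosen one. The exception was Coro1a, at 96.2% against 110%. For 29 members the array held 1 probe set, which left no such check.

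Promoters of genes near either end of this order are shown, the lowest gene, Fcgr3, not among them. They are those of the granule genes Ngp and Camp and of the neighbouring C1qb and C1qc. Ngp and Camp, both on chromosome 9, had the highest percentages of the members. Ngp and Camp did not have the same percentage (179% and 124%). Each sequence is the 250 bases before the RefSeq start, written along the gene. Capitals mark 2 motifs searched on both strands, GAGGAA, a core bound by PU.1, and TTGCNNAA, a core bound by C/EBP factors, with no overlap between them in these sequences.
Ngp, GRCm38.p6 chr9:110419558-110419807, plus strand: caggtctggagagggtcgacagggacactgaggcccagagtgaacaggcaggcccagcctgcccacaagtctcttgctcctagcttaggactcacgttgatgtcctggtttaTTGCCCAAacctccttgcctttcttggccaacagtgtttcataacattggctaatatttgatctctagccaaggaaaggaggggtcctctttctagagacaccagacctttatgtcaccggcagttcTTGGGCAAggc
Camp, GRCm38.p6 chr9:109849457-109849706, minus strand: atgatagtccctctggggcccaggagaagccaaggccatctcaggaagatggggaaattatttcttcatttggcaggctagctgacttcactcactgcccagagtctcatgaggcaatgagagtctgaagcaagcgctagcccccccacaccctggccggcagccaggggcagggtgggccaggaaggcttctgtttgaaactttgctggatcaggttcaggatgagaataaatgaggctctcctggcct
C1qb, GRCm38.p6 chr4:136886201-136886450, minus strand: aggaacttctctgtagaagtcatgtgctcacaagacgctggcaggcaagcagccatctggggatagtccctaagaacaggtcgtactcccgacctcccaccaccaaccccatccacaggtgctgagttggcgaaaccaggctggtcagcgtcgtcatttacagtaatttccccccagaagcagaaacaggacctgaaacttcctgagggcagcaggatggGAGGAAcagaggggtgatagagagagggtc
C1qc, GRCm38.p6 chr4:136892915-136893164, minus strand: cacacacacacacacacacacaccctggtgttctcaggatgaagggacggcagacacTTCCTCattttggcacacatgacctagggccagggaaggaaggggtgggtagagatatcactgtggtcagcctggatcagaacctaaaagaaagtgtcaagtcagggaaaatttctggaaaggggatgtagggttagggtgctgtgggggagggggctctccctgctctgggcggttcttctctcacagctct

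GAGGAA occurred once in C1qb and once, on the opposite strand, in C1qc, and not in Ngp or Camp. TTGCNNAA occurred at 2 places in Ngp and in none of the other 3. Across the 28 members in the table, with 33 promoters, 16 promoters (48.5%) held GAGGAA, beside 23.3% of all 32851 promoters. TTGCNNAA was held by 5 of the 33 (15.2%), beside 9.56% of all. By kind, GAGGAA was found in 7 of 12 macrophage and monocyte promoters, 2 of 3 lymphocyte promoters, 3 of 10 shared leukocyte promoters, 1 of 2 cytokine promoters and 1 of 4 neutrophil promoters (S100a8). TTGCNNAA was found in 3 of 12 macrophage and monocyte promoters, those of Cd68 and Fcgr3. It was also found in 2 of 4 neutrophil promoters (Ngp and S100a9), and in 0 of the other kinds. Fcgr3 (50.4%) and Cd68 (57.0%) were among the members with the lowest percentages in GFP+, and both also held GAGGAA. Ctss (106%), Ccl3 (107%) and S100a8 (97.2%) held GAGGAA too, so it was not confined to the low end of the order. A match is a string of letters in this window and not a bound site.

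Further genes of the same cells were read from 6 immune lists that do not overlap the members, 119 of 141 listed genes being on the array and 76 above the floor. Of the further macrophage genes, 19 of 31 lay 2-fold or more below GFP- in GFP+++ (background 12.4%), with a median log2 fold of -1.30. The member macrophage genes had 15 of 15 and -3.15. In 24 of the 31 and 10 of the 15 the fold was a bound set by the floor, which is smaller for dimmer genes. The gap was therefore not read as a difference in depletion. In GFP+ the 26 with a percentage had a median of 72.3%, close to the members' 73.0%. Apoe, a lipid carrier of macrophages and glia, gave 541, 3976 and 6050 (65.7%), and Cyba, a subunit of the phagocyte oxidase, 127, 981 and 1140 (86.0%). Cebpa (1456, 1036 and 1218) and the lysosomal protease gene Lgmn (1917, 3979 and 3698) kept signal in GFP+++. Trem2, a lipid receptor of macrophages, was the gene of this list at least 2-fold lower in GFP+ (94.4 against 209), as GFP+ lay under the floor.

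The 14 further neutrophil genes with a percentage had a median of 95.4%, and 6 exceeded 100%, a share below the background of 50.3%. The further list as a whole thus did not show the higher median of the member neutrophil genes. Lcn2, the iron-trapping lipocalin of neutrophil granules and secretory epithelia, gave 160, 2587 and 1745 (148%). Stfa2l1, a stefin protease inhibitor, gave 17.0, 824 and 657 (126%), and Pglyrp1, a granule protein that binds bacterial walls, 160, 1464 and 1423 (103%). Mmp8, the neutrophil collagenase, was dim at 17.9, 137 and 105 (131%). Lower ones were present too: Anxa1, which many cell types express, gave 901, 3251 and 4222, and Mmp9, a gelatinase of neutrophils and other cells, stood at 57.1%. The genes of the early granules did not run one way. The protease gene Prtn3 was highest in GFP+++ (471, 335 and 361), with 92.6% in GFP+. The peroxidase gene Mpo (26.3, 205 and 84.4) and the protease genes Ctsg (2.44, 125 and 36.1) and Elane (20.1, 104 and 58.8) passed the floor in GFP+ only, Elane barely. Mmp8, Mmp9, Prtn3, Mpo, Ctsg, Elane and Trem2 were chosen after their values were seen.

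Class II genes followed Cd74: H2-Aa gave 37.8, 847 and 1040 (81.4%) and H2-Eb1 37.2, 479 and 666 (71.9%). Zbtb46, a dendritic cell transcription factor, ran against its list, with 1143 (GFP+++), 878 (GFP+) and 387 (GFP-). In the T and NK list 5 of 21 genes passed the floor and 0 were 2-fold lower in GFP+++, with Zap70 at 403, 709 and 455 and Gzma at 149, 176 and 234. In the B cell list 9 of 15 passed, and Blnk (331, 1007 and 1022) was the gene at least 2-fold lower in GFP+++. Ebf1, also a factor of olfactory neurons, gave 6382, 4793 and 5225. Vpreb1, a surrogate light chain of B cell precursors, reached 210 in GFP+ against 74.7 in GFP-, which lay under the floor (at least 2.01-fold). Of 14 mast cell, basophil and eosinophil genes 6 passed, with Kit at 230, 519 and 843 and Hdc at 1359, 1168 and 902.

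**Figure D3:**
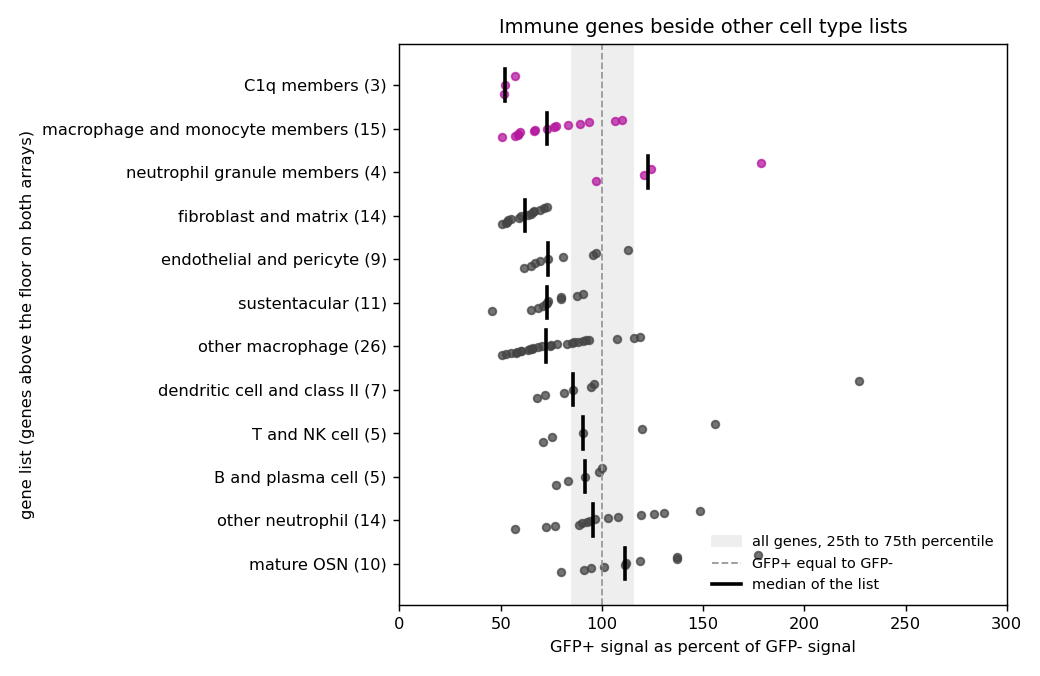
GFP+ signal as percent of GFP- signal for single genes (points) and list medians (bars), for 3 kinds of members (upper rows) and 9 further lists, with the 25th to 75th percentile of all genes shaded. C1q members (51.9%) and fibroblast genes (61.8%) have the lowest medians and neutrophil granule members (123%) the highest.

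The lists of other non-neuronal cells all had medians in GFP+ below 100%, like that of macrophage genes. The 14 fibroblast and matrix genes had a median of 61.8%, from 50.4% to 73.0%, sustentacular genes 72.7% over 11, and endothelial and pericyte genes 73.6% over 9. Erythroid genes lay nearest to 100% among these lists, with a median of 96.1% over 4, from 41.4% to 123%. The 11 immature neuron genes had 86.1%. The median of 10 mature neuron genes was 112%, from 79.8% to 177%, above 100% as that of the neutrophil granule genes was. In GFP+++ against GFP- the 2 lists parted, with a median log2 fold of -0.40 and 0 of 10 genes 2-fold lower for mature neuron genes, beside -3.78 and 4 of 4 for neutrophil granule genes. In GFP+++ against GFP-, fibroblast genes had a median log2 fold of -3.71, with 13 of 14 at least 2-fold lower. The immune genes had -3.15, but 26 of their 35 folds were bounds set by the floor, beside 4 of 14 for fibroblast genes. These medians were therefore not ranked. No difference between lists could be tested with 1 array per fraction.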

How the data were processed

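RNA of 3 sorted cell fractions was measured on 1 Affymetrix array each. Per the submitters' processing notes the authors computed each probe set's intensity with MAS5, and the deposited intensity values are linear. Its version is not given in the sources used here. No detection calls were used, so a gene without signal still has a positive value, and precision is limited by the number of arrays. The platform annotation names 1 gene for 34958 of the 45101 probe sets, several for 932 and none for 9211. Of the first, 34754 were matched by Entrez identifier to the RefSeq table of GRCm38.p6, which changed 0 symbols.

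The 2% trimmed mean was made equal on all arrays. Each of 18193 genes was read from its brightest probe set by mean signal, low signals were raised to the pooled median, and a fold of 2 counted. The percentage in GFP+ was taken for genes above the floor on both arrays. Backgrounds are the share of all genes past the same rule. The steps were tested on simulated data. Promoter sequences are RefSeq's for GRCm38.p6. Python 3.11.15, numpy 2.4.6 and pandas 2.3.3 were used.

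All 40 members could be named. Of each further list the 4 genes with the highest mean signal were eligible, as was any 2-fold against its list. The members and lists were chosen with earlier results of these data known. Other scalings, floors, probe set choices, folds and a background subtraction were tried.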

Additional observations from a re-analysis of the deposited data

How the results depend on the processing

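Of 62 immune gene values that lay 2-fold or more below GFP- or GFP+ in GFP+++, all with a value stayed so without a floor, with the probe set highest in GFP- and without _x_at and _s_at probe sets. Median scaling lost 4 and quantile normalization 3. With the median over probe sets 60 of the 62 had a value and 4 were lost, which left 56. With the floor at the 65th percentile 57 had a value and 11 were lost, which left 46. None of these values turned its direction. For GFP+++ against GFP- the median log2 fold was -1.97 with the floor at the 65th percentile, -4.38 without a floor and -2.65 with the median over probe sets. For GFP+++ against GFP+ it was -1.41 with the higher floor and -4.16 without one. These shifts follow from the floor, which sets the value of most members in GFP+++; for the median over probe sets the cause was not tested. The count of genes 2-fold or more below GFP- in GFP+ went from 0 to 3 with quantile normalization, and 11 passed at 1.5-fold. The medians by kind of the percentage in GFP+ moved by less than the measurement error under each of the 8 settings tried for them, subtraction of the 25th percentile of each array included. With median scaling the lower share of all calls went from 86.6% to 48.1% for GFP+++ against GFP-, to 46 lower and 131 higher calls, from 98 and 74, for GFP+ against GFP-, and from 90.5% to 64.8% for GFP+++ against GFP+. No replicate could be left out, and no paired analysis was possible because each fraction had 1 array. Signal near the background limits Cd3e, Cd3g, Cd79a, Cd79b, Itgam, Spi1, Ccr2 and Ccl4. The values lost with the higher floor were those of Cx3cr1, Itgb2, Cd68, Aif1, Camp, Fcgr3, Mrc1 and Ccl3.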

Other observations

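A search of all genes, made after the values of the neutrophil genes were seen, took those that lay 4-fold or more below GFP+ in GFP+++ and whose GFP+ signal was 120% of the GFP- signal or more. Of 204 genes past the first condition, 16 met both. Ngp and S100a9 were the members among them, S100a9 narrowly (121%). Among members past the first condition, the share that met both was close to that among all genes. Lcn2 (148%) and Stfa2l1 (126%) of the further neutrophil list were there too, as was the stefin gene Stfa3, with 12.5 (GFP+++), 993 (GFP+) and 730 (GFP-) (136%). Saa3, an acute phase protein of macrophages and epithelia, gave 113, 501 and 179 (279%), and Ifit1, an interferon-induced gene, gave 252, 1102 and 463 (238%). The highest percentage was that of Slc1a2, a glutamate transporter, with 263, 1242 and 412 (301%). The set also held the secretory epithelial gene Bpifb1 (65.3, 1213 and 965, or 126%) and the axonal receptor gene Epha5 (242, 1010 and 679, or 149%). Each rests on 1 array per fraction.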
